A study of Mus musculus with 9 samples.

Results

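Matrix metalloproteinases and their tissue inhibitors were followed in the central cornea of 3 inbred mouse strains, through the transcripts of Mmp2, Mmp3, Mmp9, Mmp14, Mmp15, Mmp19 and Timp1 to Timp4. Members were found as the probe sets whose only gene symbol in the platform annotation was one of these 10 names. Of the 10 genes listed, 9 had such a probe set, 23 probe sets in all, among the 18193 genes with 1 symbol in the table. Mmp15, a membrane-anchored metalloproteinase, was not analysed here. A gene was read through its brightest probe set, that of the highest mean on the 9 arrays together, and its other probe sets served as a check.

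The study measured RNA from the central cornea on Affymetrix arrays, with 3 arrays for each of the strains SJL/J (SJL), C57BLKS/J (KS) and C57Bl/6J (B6). Per the labels, SJL has a thick central cornea and KS a thin one, and B6 carries no thickness label. All mice were adult males aged 4 months, and each array held the 2 corneal punches, 2 mm wide, of 1 mouse. The labels name no introduced allele and no treatment, and strain cannot be told apart from thickness, since each thickness was represented by 1 strain.

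Metalloproteinases are zinc-dependent enzymes that cut collagens, proteoglycans and basement membrane proteins. They are made as inactive precursors and are held in check by the tissue inhibitors, which bind the active enzyme. Mmp14 sits in the cell membrane and, with Timp2 as a bridge, activates the precursor of Mmp2, the gelatinase that keratocytes of the normal cornea make. Mmp3 and Mmp9 are best known in the cornea from wounds and inflammation, and Timp3 differs from the other inhibitors in being bound to the extracellular matrix and in also blocking ADAM and ADAMTS proteases.

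Promoters are shown for the inhibitors whose probe sets differed most between strains, Timp3 and Timp2, and for a protease with clear signal and one near the lower end of the scale, Mmp14 and Mmp3. Each sequence is the RefSeq sequence of GRCm38.p6, a C57BL/6J assembly, covering 250 bases before the start of the gene and 50 after it, 5′ to 3′ along the gene. Capitals mark matches to GGGCGG, the GC box (its complement reads CCGCCC), and to TGANTCA, the AP-1 motif, both searched on both strands, and to TATAAA on the strand shown. Timp3 lies at chr10:86300162-86300461 on the plus strand, Timp2 at chr11:118355362-118355661 on the minus strand, Mmp14 at chr14:54431348-54431647 on the plus strand and Mmp3 at chr9:7445572-7445871 on the plus strand.
Timp3: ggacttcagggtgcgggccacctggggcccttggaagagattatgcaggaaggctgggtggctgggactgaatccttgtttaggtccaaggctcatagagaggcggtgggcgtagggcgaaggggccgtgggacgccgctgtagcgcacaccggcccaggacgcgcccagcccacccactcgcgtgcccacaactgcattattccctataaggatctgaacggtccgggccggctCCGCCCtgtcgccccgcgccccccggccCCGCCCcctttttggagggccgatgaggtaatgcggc
Timp2: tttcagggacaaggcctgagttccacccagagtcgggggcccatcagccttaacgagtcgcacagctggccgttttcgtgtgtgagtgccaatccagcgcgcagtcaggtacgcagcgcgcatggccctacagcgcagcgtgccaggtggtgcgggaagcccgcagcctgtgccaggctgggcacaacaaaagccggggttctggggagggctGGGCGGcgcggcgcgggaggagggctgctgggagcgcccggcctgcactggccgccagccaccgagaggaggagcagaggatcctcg
Mmp14: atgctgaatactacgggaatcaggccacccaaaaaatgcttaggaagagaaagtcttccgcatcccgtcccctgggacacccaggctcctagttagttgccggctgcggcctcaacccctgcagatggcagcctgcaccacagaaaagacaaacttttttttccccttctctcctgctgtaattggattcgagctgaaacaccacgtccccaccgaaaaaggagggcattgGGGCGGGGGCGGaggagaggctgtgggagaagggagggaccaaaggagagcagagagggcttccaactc
Mmp3: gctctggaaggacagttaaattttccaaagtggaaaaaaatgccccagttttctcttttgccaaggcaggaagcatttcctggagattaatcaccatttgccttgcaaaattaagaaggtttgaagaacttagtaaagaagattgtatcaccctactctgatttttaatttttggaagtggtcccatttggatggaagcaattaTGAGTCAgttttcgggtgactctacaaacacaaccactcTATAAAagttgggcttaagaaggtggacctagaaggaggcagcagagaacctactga
Timp3 and Mmp14 each had 2 GC boxes and Timp2 had 1, and none of these promoters held the AP-1 or TATAAA letters. Mmp3 had the AP-1 letters 46 bases before the start and a TATAAA, and no GC box. Among 32851 RefSeq promoters of the same length, 35.7% held a GC box, 7.81% the AP-1 motif and 8.32% TATAAA. A promoter row was found for 7 of the 10 members, and no 2 kinds of motif overlapped within them. The matches describe these letters in the B6 reference only.

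The deposited values were intensities on a linear scale. Their median was 7.48, and 54.6% lay under 16. Tests used log2(intensity + 10) in limma on the 9 arrays, and probe sets whose mean log2 level lay under that of an intensity of 8.01, the median of all probe sets that were not controls, were not tested. Differences are therefore understated for dim probe sets. A gene was called at a Benjamini-Hochberg adjusted p under 0.05 over the 22519 probe sets tested. Arrays of a strain correlated at 0.982 to 0.994. Markers of corneal epithelium, stroma and endothelium were abundant on every array, while KS 3 carried photoreceptor markers summing to 5244 against at most 47.3 on any other array. B6 3 had the highest difference between the 3' and 5' Gapdh controls, 1.55 on the log2 scale against 0.733 to 1.17 on the other arrays.

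Timp3 was the only member called through its main probe set. Its level fell in SJL against KS and, in a call that was lost without certain single arrays, against B6, and KS against B6 was not called. The transcripts of the proteases Mmp2, Mmp14 and Mmp19 did not pass the test in any contrast. Of the 9 genes with a probe set, 5 passed the filter: Mmp2, Mmp14, Mmp19, Timp2 and Timp3. In SJL against KS, 1 of these 5 was called, beside 14.9% of all genes tested, of which 6.80% were higher and 8.08% lower in SJL. In KS against B6, 0 of 5 were called by limma, 2 had an unadjusted p under 0.05, and 6.27% of all genes were called (3.40% higher and 2.87% lower in KS). In SJL against B6, 1 of 5 was called, beside 16.1% of all genes (8.39% higher and 7.68% lower in SJL). The moderated F-test for any strain difference called 1 of 5, beside 19.4% of genes. With 5 genes tested, 1 call lies close to those backgrounds, so the counts say nothing particular about the family. The median log2 difference of the 5 was -0.23 for SJL against KS, 0.24 for KS against B6 and -0.30 for SJL against B6, beside 0.02, 0.01 and 0.02 over all genes tested.

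**Figure D1:**
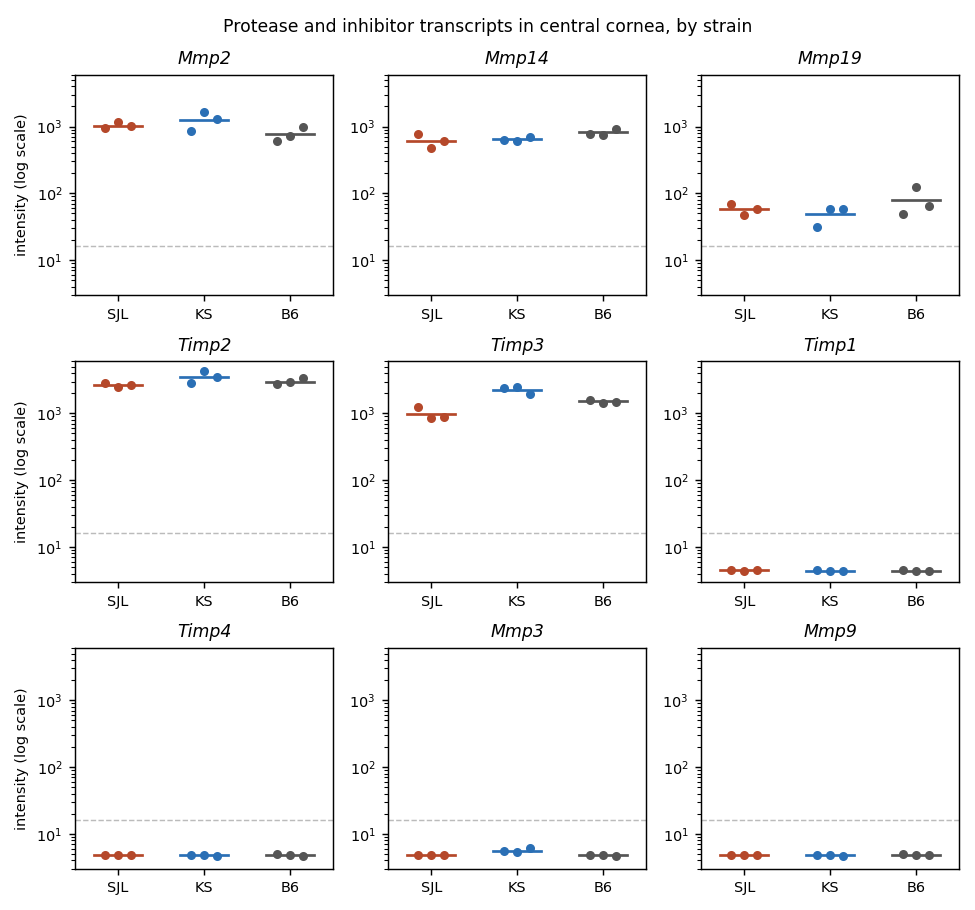
Intensity on a log scale on each of the 3 arrays of SJL, KS and B6 for the 9 genes with a probe set, with a line at the mean. The dashed line marks 16, under which 54.6% of all intensities lay. Timp3 shows 3 separate groups, with SJL lowest and KS highest, while Timp1, Timp4, Mmp3 and Mmp9 stay near the lower end.

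Mmp2, gelatinase A, had intensities of 936, 1160 and 1008 on the SJL arrays, 849, 1623 and 1290 on the KS arrays, and 613, 714 and 1000 on the B6 arrays. KS held both a low and the highest array, and all 3 strains overlapped. The log2 difference was -0.23 (95% interval -0.81 to 0.35, limma adjusted p = 0.601) for SJL against KS, 0.67 (0.09 to 1.24, adjusted p = 0.197) for KS against B6 and 0.43 (-0.14 to 1.01, adjusted p = 0.298) for SJL against B6. The order of the means was KS, SJL, B6, and no neighbours in it differed beyond their spread. A second Mmp2 probe set gave the same order, with 536 ± 71.9 in SJL, 633 ± 145 in KS and 445 ± 119 in B6 (SD, n = 3 each).

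Mmp14, the membrane-anchored activator of Mmp2, had 771, 470 and 598 in SJL, 621, 612 and 703 in KS, and 774, 745 and 927 in B6. All KS arrays lay below all B6 arrays, and SJL overlapped both. The log2 difference was -0.10 (-0.50 to 0.30, adjusted p = 0.767) for SJL against KS, -0.33 (-0.73 to 0.07, adjusted p = 0.351) for KS against B6 and -0.43 (-0.83 to -0.03, adjusted p = 0.145) for SJL against B6. None was called. SJL 1, the highest SJL array, decided the last value: without it the difference was -0.60 with an adjusted p of 0.0308.

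The Mmp14 probe sets disagreed about SJL. Probe set 1440920_at had 820, 496 and 629 in SJL, 362, 431 and 518 in KS, and 536, 575 and 372 in B6, so its highest arrays were in SJL. Its log2 difference was 0.54 in SJL against KS (adjusted p = 0.157), of opposite sign to that of the main probe set, 1448383_at, and it was not called. Set against 1448383_at on the same array, it stood 0.09, 0.08 and 0.07 higher on the log2 scale in SJL. The same value was -0.76, -0.50 and -0.43 in KS and -0.52, -0.37 and -1.29 in B6, so SJL lay above both other strains. The lowest of these values belonged to B6 3, the array with the highest 3' to 5' control difference, whose part in it was not tested. The third probe set, 1416572_at, was dimmer, at 72.1 ± 24.0 in SJL, 88.3 ± 2.83 in KS and 93.1 ± 28.9 in B6 (SD, n = 3 each).

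Mmp19, a secreted protease that cuts basement membrane proteins, was dim, with 69.9, 47.8 and 58.1 in SJL, 31.2, 58.1 and 57.7 in KS, and 48.9, 124 and 63.8 in B6. One B6 array stood high and one KS array low, and the strains overlapped. The log2 difference was 0.24 (-0.48 to 0.97, adjusted p = 0.675) for SJL against KS, -0.54 (-1.27 to 0.19, adjusted p = 0.400) for KS against B6 and -0.30 (-1.02 to 0.43, adjusted p = 0.592) for SJL against B6. The means ran B6, SJL, KS with no neighbours apart beyond their spread, and the other Mmp19 probe set was near the lower end, at 4.77 to 4.90.

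The proteases of wounded and inflamed tissue were near the lower end in all strains. Mmp3, stromelysin, had 4.80, 4.79 and 4.81 in SJL, 5.50, 5.29 and 6.08 in KS, and 4.87, 4.75 and 4.73 in B6. All 9 values lay far under 16, and Mmp3 was not called when the filter was left out. Mmp9, gelatinase B, lay between 4.72 and 4.94 on its brighter probe set. Intensities at this end are upper bounds on a transcript, and no order is read from them.

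Timp2, the inhibitor that also takes part in the activation of Mmp2, had 2851, 2462 and 2621 in SJL, 2847, 4282 and 3531 in KS, and 2710, 2903 and 3344 in B6 on its brightest probe set. The SJL arrays were the lowest as a group, but SJL 1 overlapped KS and B6. The log2 difference was -0.41 (-0.76 to -0.05, adjusted p = 0.121) for SJL against KS, 0.24 (-0.12 to 0.59, adjusted p = 0.454) for KS against B6 and -0.17 (-0.52 to 0.18, adjusted p = 0.518) for SJL against B6, and none was called. The means ran KS, B6, SJL with no neighbours apart beyond their spread. KS 1, the lowest KS array, decided the first value, which was called without it at an adjusted p of 0.0419.

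Of the other tested Timp2 probe sets, 1433662_s_at and 1450040_at placed SJL clearly lower, and 1460287_at did not. Probe set 1433662_s_at, whose suffix marks sequence that more than 1 transcript may share, had 995, 746 and 868 in SJL, 1451, 2229 and 1846 in KS, and 1428, 1453 and 1560 in B6, so all SJL arrays lay below all others. In SJL it fell by 1.06 on the log2 scale against KS (SE 0.165, adjusted p = 0.00313) and fell by 0.77 against B6 (SE 0.165, adjusted p = 0.0145).

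Probe set 1450040_at had 345, 230 and 197 in SJL, 476, 530 and 440 in KS, and 628, 609 and 537 in B6. Here the strains formed 3 groups that did not overlap, with B6 highest. Levels in SJL were lower, with a log2 difference of -0.91 against KS (SE 0.188, adjusted p = 0.0123) and -1.20 against B6 (SE 0.188, adjusted p = 0.00303), and KS against B6 was -0.29 (adjusted p = 0.447). The call against KS rested on KS 2, without which the adjusted p was 0.0521. The probe set 1460287_at did not show the pattern, at 995 ± 148 in SJL, 1070 ± 256 in KS and 1136 ± 243 in B6 (SD, n = 3 each), with adjusted p-values that all missed the threshold. The remaining 2 Timp2 probe sets were near the lower end.

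Set against the brightest Timp2 probe set on the same array, 1433662_s_at stood at -1.51, -1.71 and -1.58 on the log2 scale in SJL. It stood at -0.97, -0.94 and -0.93 in KS and at -0.92, -0.99 and -1.09 in B6, so the SJL arrays lay apart. For 1450040_at the same value was -3.01, -3.36 and -3.67 in SJL, -2.55, -2.99 and -2.98 in KS, and -2.09, -2.23 and -2.62 in B6. The part of the Timp2 transcript that each probe set reads was not given in the sources used here, so a lower Timp2 level in SJL held for 2 of the 4 tested probe sets and was not shown for the gene as a whole.

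**Figure D2:**
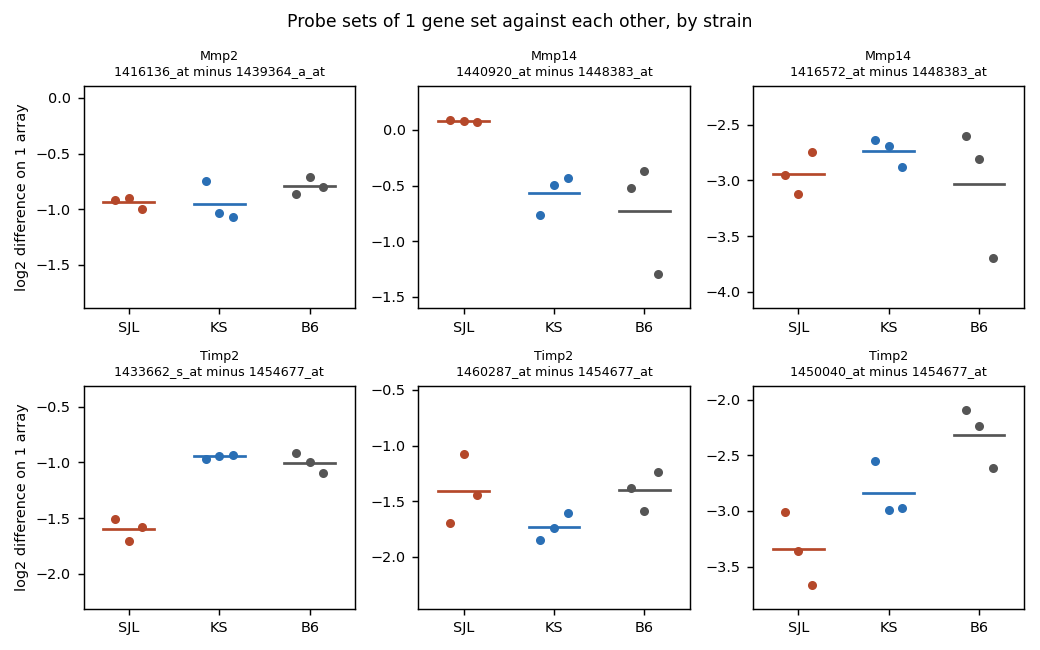
Log2 value of a check probe set minus that of the main probe set of the same gene, on each array of SJL, KS and B6, with a line at the mean. For Mmp14 1440920_at the SJL points lie above all others, and for Timp2 1433662_s_at and 1450040_at below all others. The Mmp2 difference stays between -1.07 and -0.71 on all arrays.

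Timp3, the matrix-bound inhibitor, had 1228, 853 and 877 in SJL, 2430, 2447 and 1924 in KS, and 1606, 1444 and 1478 in B6. The strains formed 3 groups with no overlap, SJL lowest and KS highest. Means were 986 ± 210 in SJL, 2267 ± 297 in KS and 1510 ± 85.5 in B6 (SD, n = 3 each). Timp3 fell in SJL to 0.435 of the KS mean, a log2 difference of -1.20 (SE 0.159, 95% interval -1.57 to -0.84, limma adjusted p = 0.00132). Against B6, SJL fell by 0.63 on the log2 scale (interval -0.99 to -0.27, adjusted p = 0.0295). In KS against B6 the difference was 0.58 (0.21 to 0.94) with an adjusted p of 0.0812, so it was not called, although all KS arrays lay above all B6 arrays. The moderated F-test over the 3 strains gave an adjusted p of 0.00268.

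The call of SJL against KS was the firmer of the pair. Left without each array in turn, its adjusted p ran to at most 0.00816, and without KS 3, the array with photoreceptor transcripts, the difference was -1.32 (adjusted p = 0.00261). The call of SJL against B6 was lost without SJL 2 (adjusted p = 0.0806), SJL 3 (0.103), B6 1 (0.0915), B6 2 (0.0626) or B6 3 (0.0665). KS against B6 was called without SJL 1, at an adjusted p of 0.0313.

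The 3 other Timp3 probe sets ran in the same direction. Probe set 1449334_at had 840, 458 and 510 in SJL, 1170, 1516 and 989 in KS, and 865, 893 and 841 in B6, with SJL below both strains though SJL 1 came within 2 units of B6 3. In SJL it fell by 1.04 against KS (adjusted p = 0.0174), a call lost without SJL 2 (0.0523), SJL 3 (0.0666) or KS 2 (0.0655). Against B6 its difference was -0.57 (adjusted p = 0.144).

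Probe set 1419089_at had 408, 390 and 268 in SJL, 957, 1086 and 734 in KS, and 716, 593 and 450 in B6. The SJL arrays were again the lowest and the KS arrays the highest, with no overlap. In SJL it fell by 1.36 against KS (adjusted p = 0.00441), and against B6 the difference was -0.71 (adjusted p = 0.0720). In KS against B6 its difference was 0.66 (adjusted p = 0.158), so the main fit called neither difference from B6. With the replicate block both were called, at an adjusted p of 0.0214 for KS and 0.00727 for SJL, though replicate numbers did not pair the arrays. The dimmest probe set, 1419088_at, had 10.5 to 17.1 in SJL, 17.0 to 28.7 in KS and 16.7 to 19.6 in B6, and its difference of SJL against KS was -0.50 (adjusted p = 0.0645).

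Timp1, the inhibitor best known to rise with inflammation, lay between 4.38 and 4.49 on all arrays, and Timp4 between 4.69 and 4.92 on its brighter probe set. Both were near the lower end in every strain, and neither was called when the filter was left out. Timp1, Timp3 and Timp4 each lie inside a synapsin gene in the RefSeq annotation. These synapsins reached at most 4.05 (Syn1), 27.6 (Syn3) and 62.2 (Syn2). Syn3, around Timp3, averaged 18.9 in SJL, against 9.22 in KS and 13.9 in B6. The KS and B6 means lay under 16, so no order is read. Syn3 was not called in any contrast (adjusted p of 0.144, 0.530 and 0.491).

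Over all 14 member probe sets tested, 5 were called in SJL against KS, beside 15.5% of all probe sets, and all 5 were lower in SJL and belonged to Timp2 or Timp3. In KS against B6, 0 of 14 were called by limma, beside 5.71%, and 3 had an unadjusted p under 0.05. In SJL against B6, 3 of 14 were called, beside 16.0%, again lower in SJL and from Timp2 and Timp3. The F-test called 5 of 14, beside 19.4%. Probe sets of a gene share its transcript and are no replicates of each other.

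**Figure D3:**
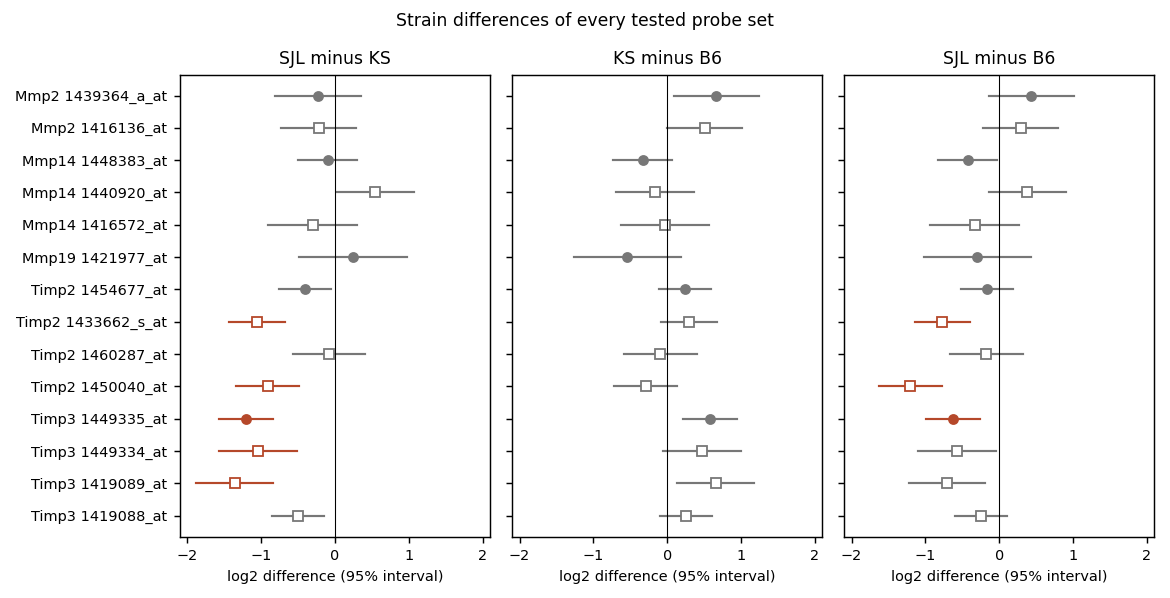
Log2 difference with its 95% interval for the 14 tested probe sets of Mmp2, Mmp14, Mmp19, Timp2 and Timp3, in SJL minus KS, KS minus B6 and SJL minus B6. Filled circles are the probe sets that stand for the gene, open squares are checks, and red marks a limma adjusted p under 0.05. The 5 red marks in SJL minus KS all lie left of 0.

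The balance of protease to inhibitor was followed as the log2 value of a protease minus that of an inhibitor on the same array. Probe sets of different genes are not on one scale, so only the differences between strains are read, as a description with no test. Against Timp3, the balance was higher in SJL than in KS for each of Mmp2, Mmp14 and Mmp19. None of these proteases was called in that contrast, with log2 differences of -0.23, -0.10 and 0.24. Timp3 was called, at -1.20, so the 3 balances mostly restate its lower level and are not separate results.

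Mmp2 minus Timp3 was -0.39, 0.44 and 0.20 in SJL, -1.51, -0.59 and -0.57 in KS, and -1.37, -1.01 and -0.56 in B6. SJL lay above both other strains, by 0.97 on the log2 scale against KS and 1.06 against B6, while KS and B6 overlapped. Mmp14 minus Timp3 was -0.66, -0.84 and -0.55 in SJL, -1.95, -1.98 and -1.44 in KS, and -1.04, -0.95 and -0.67 in B6. On these probe sets SJL was 1.11 higher than KS with no overlap, KS differed from B6 by -0.91 with no overlap, and SJL and B6 overlapped. Mmp19 minus Timp3 had means of -3.85 ± 0.131 in SJL, -5.30 ± 0.538 in KS and -4.18 ± 0.684 in B6 (SD, n = 3 each).

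Mmp2 minus Timp2 was -1.597, -1.08 and -1.37 in SJL, -1.73, -1.39 and -1.45 in KS, and -2.13, -2.01 and -1.73 in B6. SJL lay above B6 by 0.61 with no overlap, and KS overlapped both. Mmp14 minus Timp2 averaged -2.12 ± 0.246 in SJL, against -2.43 ± 0.319 in KS and -1.86 ± 0.0783 in B6 (SD, n = 3 each), with KS below B6 on all arrays and SJL overlapping both. The mean of the 3 tested proteases minus the mean of the 2 tested inhibitors was -2.20 ± 0.0693 in SJL, -2.98 ± 0.255 in KS and -2.50 ± 0.245 in B6. On it SJL lay above both strains, by 0.78 against KS and 0.30 against B6. The lowest SJL array, SJL 1 at -2.27, barely cleared the highest B6 array, B6 2 at -2.30. This combined value includes Timp3 and is not a separate result either. No balance was formed with Mmp3, Mmp9, Mmp15 or Timp1, which had no probe set or lay near the lower end.

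**Figure D4:**
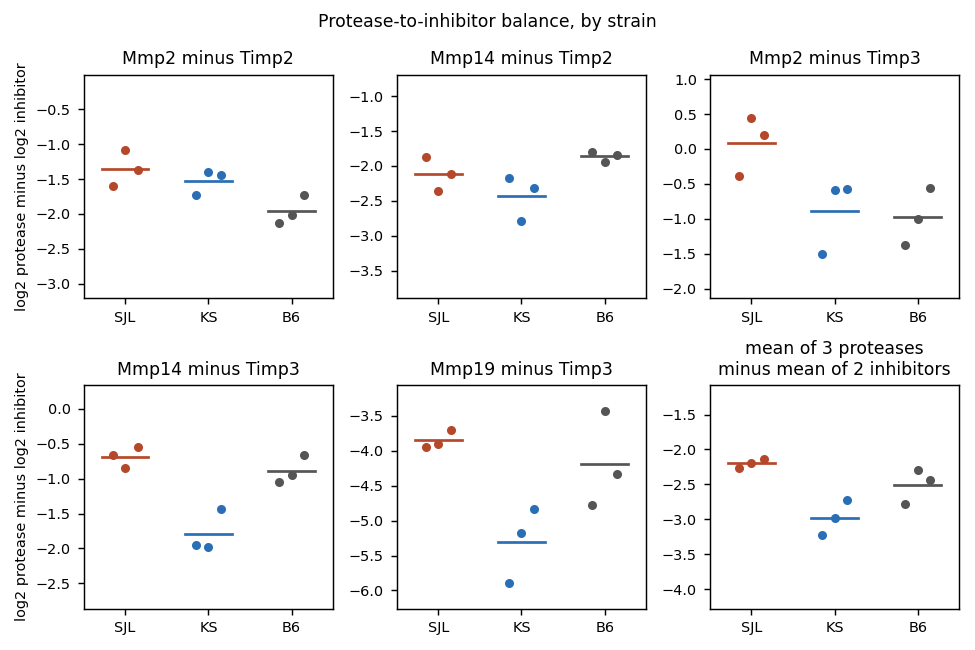
Log2 value of a protease minus log2 value of an inhibitor on each array of SJL, KS and B6, with a line at the mean, for 5 pairs and for the mean of 3 proteases minus the mean of 2 inhibitors. SJL points lie above KS points in the 3 pairs with Timp3 and in the combined value. They overlap KS in both pairs with Timp2.

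The balances were also formed with every combination of tested probe sets. The SJL minus KS difference was positive in 12 of 12 combinations for Mmp14 and Timp3 (0.19 to 1.91, with 10 not overlapping). It was positive in 8 of 8 for Mmp2 and Timp3 (0.26 to 1.14, with 4 not overlapping) and in 4 of 4 for Mmp19 and Timp3 (0.74 to 1.605, none overlapping). For Mmp2 and Timp2 it was positive in 6 of 8 combinations (-0.15 to 0.84, with 2 above and 1 below without overlap), and for Mmp14 and Timp2 in 10 of 12 (-0.22 to 1.61). For SJL minus B6, Mmp2 and Timp2 gave 8 of 8 positive combinations (0.46 to 1.64), none of which overlapped, and Mmp2 and Timp3 also gave 8 of 8 (0.53 to 1.14, with 3 not overlapping). Mmp14 and Timp2 gave 8 of 12 positive combinations for SJL minus B6 (-0.26 to 1.58, with 6 not overlapping). The KS minus B6 difference was negative in all 12 combinations of Mmp14 and Timp3 (-0.98 to -0.28), but KS lay below B6 without overlap in only 5 of them. In all 4 combinations of Mmp19 and Timp3 it was negative too (-1.20 to -0.79), with 1 not overlapping. For Mmp14 and Timp2 it ran from -0.62 to 0.26, with 3 of 12 positive and KS below B6 without overlap in 2. For Mmp2 and Timp2 it ran the other way, positive in 8 of 8 combinations (0.22 to 0.96, with 3 not overlapping). For Mmp2 and Timp3 it was positive in 6 of 8 (-0.15 to 0.41, with 0 not overlapping). The combinations share probe sets and are no independent checks. How often other pairs of probe sets lie apart between strains was not measured, so these counts have no background beside them.

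Members of the family varied together in part. Across the 9 arrays, Pearson's r of Mmp2 with Timp2 was 0.63, and 0.83 for the deviations of the arrays from their strain means. For Timp2 with Timp3 it was 0.71 across arrays and 0.17 for the deviations. The other pairs of tested members lay between -0.40 and 0.39 across arrays. Arrays of a strain share its level, so these values are descriptions. In KS and B6 the Mmp2 and Timp2 pair followed the same arrays. KS 1 was the lowest and KS 2 the highest KS array for both, and B6 3 the highest B6 array for both. In SJL the pair ran the other way. SJL 2 was the highest SJL array for Mmp2 (1160) and the lowest for Timp2 (2462). SJL 1 was the lowest for Mmp2 (936) and the highest for Timp2 (2851). The stromal marker sum shared some of these extremes, lowest of KS on KS 1 (52737), highest of KS on KS 2 (60346) and highest of B6 on B6 3 (57737). It was lowest of B6 on B6 2 (49551), while both genes were lowest on B6 1. Its highest SJL array was SJL 3 (50929), the highest for neither gene. The part of stromal content in the variation of Mmp2 and Timp2 was not tested.

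Several cell type markers also differed by strain. In a bulk tissue, fewer cells of a type and less RNA per cell cannot be told apart. The summed intensity of 7 corneal endothelium markers was 20683 to 25922 in SJL, 28830 to 33891 in KS and 26789 to 32544 in B6. Most of the gap lay in Car3, at 9597 to 11991, 12893 to 15201 and 12595 to 15752 in SJL, KS and B6, and in Atp1b1. Atp1b1 had 2253 to 2941, 5118 to 5981 and 4060 to 5611. The other markers of the list overlapped between strains, such as Col8a2, at 3358 to 3592, 3216 to 3518 and 3261 to 3740. The sum of 6 conjunctiva and limbus markers was 6695 to 8397 in SJL, 21602 to 24088 in KS and 24199 to 29682 in B6. Krt15 and Krt13 made up most of that gap, with Krt15 at 11.2 to 251 in SJL, 7043 to 9353 in KS and 9813 to 13641 in B6, and Krt13 at 3216 to 4307, 11901 to 12531 and 11014 to 13091 in SJL, KS and B6. Krt19 of the same list ran the other way, at 3061 to 3761 in SJL, 2111 to 2964 in KS and 1847 to 2257 in B6. The sum of 6 blood vessel markers was 73.2 to 92.2 in SJL, 112 to 136 in KS and 125 to 229 in B6, with 5 of the 6 under 16 on all arrays. The part of these cells in the Timp3 result was not tested.

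The retinal pigment epithelium, a known source of Timp3 in the eye, had marker sums of 121 to 130 in SJL, 219 to 516 in KS and 315 to 371 in B6. The highest KS sum was that of KS 3, the array with photoreceptor transcripts. Its defining marker Rpe65 was at most 4.75 on all arrays, and 4 of its 8 markers stayed under 16. Of the others, Best1 was lowest in SJL, at 50.5 to 77.3, against 125 to 177 in KS and 112 to 158 in B6. Ttr was too, at 6.66 to 15.9, against 45.5 to 261 in KS and 34.2 to 196 in B6. Dct was not, at 22.1 to 32.6 in SJL, 13.7 to 26.9 in KS and 27.4 to 99.9 in B6. Rlbp1 rose above 16 only on KS 3, at 33.4. The sums of epithelial markers were 131348 to 136855 in SJL, 139810 to 142772 in KS and 147004 to 148067 in B6. Most of the gap between SJL and the other strains lay in Muc4, at 1848 to 2120 in SJL, 10713 to 13420 in KS and 12442 to 14246 in B6, while Krt14 was higher in SJL, at 6584 to 7572 against 5235 to 6182 in KS and 4958 to 5732 in B6. The part of these cells in the Timp3 result was likewise not tested. Muscle markers were near the lower end throughout, at 30.4 to 31.8 in sum. Iris and pigment cell markers summed to 87.8 to 105 in SJL, 91.9 to 113 in KS and 96.4 to 177 in B6, leukocyte markers to 1436 to 1687, 1643 to 2528 and 1826 to 1969 in SJL, KS and B6. Neutrophil markers summed to 249 to 492 in SJL, 108 to 583 in KS and 24.9 to 58.6 in B6. Only S100a9 rose above 16, and 4 of the 5 markers, S100a8 among them, lay under 16 on all arrays. Mmp9, a neutrophil product, also stayed near the lower end on all arrays.

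Genes near Timp3 and genes with a similar pattern were named by rule. On chromosome 10 the neighbours of Timp3 in the RefSeq order, Fbxo7, Syn3, 1810014B01Rik and Hsp90b1, were called in no contrast. Across the 9 arrays and 10951 genes, the highest Pearson r with Timp3 belonged to Cacnb4 (0.98), a calcium channel subunit, Hacd3 (0.98), an enzyme of fatty acid elongation, and Dpp4 (0.98), a membrane peptidase. Dpp4 averaged 836 in SJL, against 1979 in KS and 1417 in B6. The lowest r was that of Hspa5 (-0.99), an endoplasmic reticulum chaperone, with means of 8462 in SJL, 6436 in KS and 7173 in B6.

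The enzymes around the family changed in a few named genes. Plat, the tissue plasminogen activator, which makes plasmin and so can help activate metalloproteinase precursors, had 984, 1214 and 850 in SJL, 196, 188 and 203 in KS, and 327, 350 and 559 in B6. The strains did not overlap, with SJL highest and KS lowest. Plat rose in SJL by 2.30 on the log2 scale against KS (SE 0.206, adjusted p = 0.00014) and by 1.31 against B6 (adjusted p = 0.00318). Plat in KS fell by 1.00 against B6 (adjusted p = 0.0267), a call lost without any 1 of the KS arrays (adjusted p of 0.0730, 0.106 and 0.0802). The other tested probe set of Plat was called in SJL against KS (0.97, adjusted p = 0.0149) but not in KS against B6 (-0.36, adjusted p = 0.391) or SJL against B6 (0.61, adjusted p = 0.0873). Of the 12 genes listed as plasminogen activators and serpins, 4 were tested: 1 was higher and 0 lower in SJL against KS, 0 higher and 2 lower in KS against B6, and 1 higher and 0 lower in SJL against B6. The other called gene was Serpini1, a serpin that inhibits Plat, at 52.4 ± 16.7 in KS and 139 ± 42.2 in B6 (SD, n = 3 each; adjusted p = 0.0176). The 4 tested genes had a median log2 difference of 0.26 for SJL against KS, -0.58 for KS against B6 and -0.24 for SJL against B6. Of all genes tested, 14.9%, 6.27% and 16.1% were called in the same order. The Serpini1 call was lost without KS 1 (0.0510), KS 3 (0.0639) or B6 2 (0.0502). Its other tested probe set was not called in KS against B6 (-0.55, adjusted p = 0.108) and was called as lower in SJL against B6 (-0.60, adjusted p = 0.0415).

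Regulators of metalloproteinase activity and uptake numbered 14 tested of 18 listed. In SJL against KS, 1 was higher and 2 were lower. In KS against B6, 0 were called by limma and 1 had an unadjusted p under 0.05, and in SJL against B6, 1 was higher and 3 were lower. The median log2 difference of the 14 was -0.06, 0.02 and -0.14 in these contrasts, and 14.9%, 6.27% and 16.1% of all genes tested were called. Reck, a membrane-anchored inhibitor of metalloproteinases, had 275, 267 and 218 in SJL, 94.0, 80.6 and 57.8 in KS, and 125, 33.3 and 73.7 in B6. It rose in SJL by 1.61 against KS (adjusted p = 0.0189) and by 1.73 against B6 (adjusted p = 0.0130). The call against KS was lost without SJL 1 (0.0505), SJL 2 (0.0562), KS 2 (0.0568) or KS 3 (0.0716), and that against B6 in none of the leave-outs.

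Thbs1, a matricellular protein, averaged 644 ± 218 in SJL, against 1485 ± 203 in KS and 1198 ± 161 in B6 (SD, n = 3 each). Its level in SJL fell by 1.24 on the log2 scale against KS (adjusted p = 0.00850) and fell by 0.93 against B6 (adjusted p = 0.0299). Thbs2, which binds Mmp2 for uptake by the cell, fell in SJL against B6, with 2075 ± 428 in SJL and 3123 ± 259 in B6 (adjusted p = 0.0312). Spock2, an extracellular proteoglycan of the testican family, fell in SJL against KS, with 215 ± 7.90 in SJL and 467 ± 40.0 in KS (adjusted p = 0.00266). The call of Thbs1 against B6 was lost without SJL 3, KS 1, B6 1 or B6 2 (adjusted p of 0.0509 to 0.0958). That of Thbs2 was lost without SJL 3, KS 3 or any 1 of the B6 arrays (0.0540 to 0.0926). Of the other tested probe sets of Thbs2, 1 was called in that contrast (-1.09, adjusted p = 0.0482) and 1 was not (-0.24, adjusted p = 0.249).

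Other metalloproteinases had 3 tested genes of 17 listed, 13 with a probe set, and only Mmp23 was called among them. Mmp23 had 84.6, 182 and 85.9 in SJL, 284, 534 and 328 in KS, and 169, 110 and 172 in B6, and its log2 difference in SJL against KS was -1.65 (adjusted p = 0.0111). It was not called in KS against B6 (1.26, adjusted p = 0.0696) or in SJL against B6. Mmp10 and Mmp24 were not called in any contrast. Their median log2 difference was 0.03 for SJL against KS, 0.26 for KS against B6 and 0.21 for SJL against B6. Of 7 tested ADAM family genes of 11 listed, 0 were called by limma in any contrast, and 0, 1 and 1 had an unadjusted p under 0.05 in SJL against KS, in KS against B6, then in SJL against B6. Their medians were 0.00, 0.05 and -0.01. Beside both lists, 14.9%, 6.27% and 16.1% of all genes tested were called in the same order of contrasts.

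Of 24 ADAMTS proteases and ADAMTS-like proteins listed, 8 were tested. In SJL against KS, 1 was higher and 3 were lower, in KS against B6, 0 were called by limma or had an unadjusted p under 0.05, and in SJL against B6, 0 were higher and 3 lower. The median log2 difference was -0.49, 0.02 and -0.57 in these contrasts, and 14.9%, 6.27% and 16.1% of all genes tested were called. Adamts18, a secreted protease, had 18.1, 12.1 and 23.4 in SJL, 143, 164 and 148 in KS, and 227, 327 and 143 in B6. SJL lay far below both strains, with a log2 difference of -2.55 against KS (adjusted p = 0.000353) and -3.07 against B6 (adjusted p = 0.000115). Adamtsl1 and Adamtsl3, which lack a protease domain, also fell in SJL. Adamtsl1 averaged 390 ± 45.0 in SJL, against 725 ± 58.0 in KS and 701 ± 156 in B6, but its other probe set gave a log2 difference of -0.17 against KS and 0.05 against B6. Adamtsl3 averaged 40.1 ± 5.72 in SJL, against 144 ± 52.5 in KS and 101 ± 42.0 in B6 (SD, n = 3 each), and its call against B6 was lost without SJL 3 (adjusted p = 0.131) and 5 other arrays. Adamtsl5, the higher gene, was chosen after its values were seen and averaged 129 in SJL and 81.4 in KS (adjusted p = 0.0217).

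**Figure D5:**
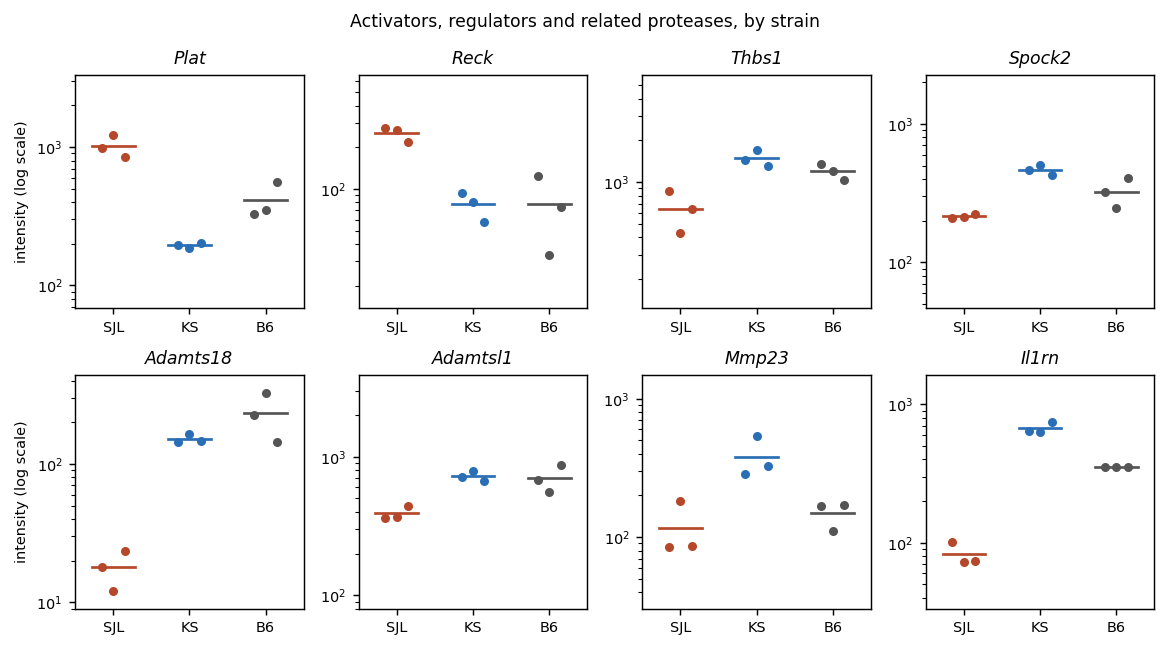
Intensity on a log scale on each array of SJL, KS and B6 for 8 genes around the metalloproteinases, with a line at the mean. Plat and Reck are highest in SJL, while Thbs1, Spock2, Adamts18, Adamtsl1 and Il1rn are lowest there.

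All 11 cathepsins and cystatins listed were tested. In SJL against KS, 1 was higher, Ctss, which encodes cathepsin S, with 2680 ± 353 in SJL and 1377 ± 257 in KS (adjusted p = 0.0197). In KS against B6, 2 were higher. Ctsk, the collagen-cutting cathepsin K, had 118 ± 39.7 in KS and 53.0 ± 6.97 in B6 (adjusted p = 0.0333), and the protease inhibitor Cst6 had 3034 ± 234 in KS and 1772 ± 287 in B6 (adjusted p = 0.0253). In SJL against B6, 0 were called by limma and 3 had an unadjusted p under 0.05. Medians of the 11 were 0.01 for SJL against KS, 0.05 for KS against B6 and 0.16 for SJL against B6. The shares of all genes tested that were called were 14.9%, 6.27% and 16.1% in the same order. The call of Ctss was lost without SJL 1, SJL 3, KS 2 or KS 3 (adjusted p of 0.0547 to 0.0722). Ctsk was not called without SJL 3, KS 2, KS 3 or any 1 of the B6 arrays (0.0607 to 0.112), nor Cst6 without any 1 of the KS arrays, B6 1 or B6 3 (0.0548 to 0.110).

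Of 29 matrix genes that serve as substrates, 27 were tested. In SJL against KS, 3 were higher and 4 lower, in KS against B6, 3 were higher and 0 lower, and in SJL against B6, 4 were higher and 1 lower. Over the 27 genes the median log2 difference was -0.13, 0.14 and -0.07 in these contrasts, and 14.9%, 6.27% and 16.1% of all genes tested were called. Fn1, which encodes fibronectin, rose in SJL, with 7052 ± 568 in SJL, 3191 ± 177 in KS and 3796 ± 592 in B6 (adjusted p = 0.00044 and 0.00158). Fmod, the collagen-binding proteoglycan fibromodulin, fell in SJL, with 261, 460 and 627 in SJL, 4451, 7399 and 5871 in KS, and 2311, 2193 and 3927 in B6 (adjusted p = 0.00018 and 0.00125). Col3a1, a fibrillar collagen, fell in SJL against KS (16.3 ± 4.76 in SJL and 95.5 ± 20.8 in KS, adjusted p = 0.0104) and rose in KS against B6 (21.6 ± 21.5 in B6, adjusted p = 0.0267). Lamb3, a laminin chain of the epithelial basement membrane, rose in SJL against B6 (1152 ± 142 in SJL and 591 ± 136 in B6, adjusted p = 0.00633). Col7a1 and Postn rose in KS against B6 (adjusted p = 0.0384 and 0.0296), and these calls and that of Col3a1 in the same contrast were lost without any 1 of the KS arrays (adjusted p of 0.0657 to 0.152). All 3 were also lost without B6 2, Col3a1 and Postn without B6 1, Col3a1 without SJL 3, and Col7a1 without any 1 of the SJL arrays (0.0502 to 0.0937).

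Of 19 cytokines and factors upstream of the family, 13 were tested. In SJL against KS, 1 was higher and 2 lower, in KS against B6, 2 were higher and 0 lower, and in SJL against B6, 1 was higher and 1 lower. The 13 genes had medians of 0.08, -0.31 and -0.26 in these contrasts, and 14.9%, 6.27% and 16.1% of all genes tested were called. Il1rn, the antagonist of the interleukin 1 receptor, had 102, 73.2 and 73.9 in SJL, 640, 632 and 745 in KS, and 352, 351 and 352 in B6. The strains did not overlap, and the log2 difference was -2.89 for SJL against KS (adjusted p = 2.17e-06), 0.91 for KS against B6 (adjusted p = 0.0040) and -1.97 for SJL against B6 (adjusted p = 2.35e-05). The order of the strains was that of Timp3.

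Tgfb1, a growth factor that raises Timp transcripts in many cells, rose in SJL, with 113 ± 33.6 in SJL, 62.2 ± 3.99 in KS and 53.0 ± 1.15 in B6 (adjusted p = 0.0244 and 0.00811). The call against KS was lost without SJL 3 (0.0732) or any 1 of the KS arrays (0.0667 to 0.0814). Tgfb2, its relative, fell in SJL against KS and rose in KS against B6, with 135 ± 39.6 in SJL, 288 ± 57.3 in KS and 135 ± 7.45 in B6 (adjusted p = 0.0126 and 0.0319). Both calls were lost without KS 2 or KS 3, and the call against B6 also without any 1 of the B6 arrays (adjusted p of 0.0507 to 0.131).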

How the data were processed

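RNA of central cornea was labelled with biotin and hybridised to Affymetrix arrays, per the labels. The deposited file holds the authors' summarised intensity for each of 45101 probe sets on 9 arrays, 64 of them controls. How probes were summarised, corrected for background and scaled was not given in the sources used here. Gene symbols came from the platform annotation: 34945 of the other 45037 probe sets had 1 symbol, 932 had several and 9160 had none. Read depth does not apply to arrays, and their number, 3 a strain, limits the precision. A level under about 16 is an upper bound.

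The design allowed for a log or a linear table. As the values proved linear, log2(intensity + 10) was fitted with limma 3.58.1 in R 4.3.3, with 1 mean per strain over the 9 arrays and 6 residual degrees of freedom. A filter kept the 22519 probe sets with a mean log2 level at or above the median of those that were no controls, and 10956 of 18193 genes had their probe set tested. P-values are two-sided and adjusted by Benjamini-Hochberg over all probe sets tested. With 3 arrays a strain, exact permutation reaches no p below 0.1, so it was not used. The fit was tested on simulated data. Promoters and gene order came from RefSeq tables of GRCm38.p6, read with Python 3.11.15.

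Named genes were all members, up to 3 called genes with the largest difference per list and contrast, the neighbours of a called member, and the 3 genes most like and the 1 least like it. The lists were other metalloproteinases, ADAM family genes, ADAMTS proteases and ADAMTS-like proteins, plasminogen activators and serpins, metalloproteinase activation and uptake, cathepsins and cystatins, matrix substrates, upstream cytokines and factors, and the cell type markers. Members and lists were chosen with earlier results of these data known. Replicate numbers did not pair the arrays: same-numbered arrays of different strains had correlations of their deviations from -0.266 to 0.263, against -0.357 to 0.423 for other pairs. Alternatives changed the filter, scaling, pseudocount, variance model, arrays or probe sets, and their effects are given with the closing observations.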

Additional observations from a re-analysis of the deposited data

How the results depend on the processing

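The call of Timp3 in SJL against KS held under all 23 alternatives, with log2 differences from -1.37 to -1.03 and limma adjusted p from 3.65e-05 to 0.00857. The call of Timp3 in SJL against B6 was lost in 10 of 23, with adjusted p of up to 0.194 under a test against a fold of 1.2, 0.0897 with no filter, 0.0618 on the 6 arrays of the 2 strains and 0.0535 with the mean of all probe sets. Without KS replicate 3 and B6 replicate 3 together, an alternative chosen after seeing the data, it was 0.0749. The number of members called in SJL against B6 was therefore 0 with no filter, on 6 arrays, against a fold of 1.2 and without those 2 arrays. With array weights the numbers called were 2 in SJL against KS, 1 in KS against B6, 2 in SJL against B6 and 3 by the F-test. Over all 22519 probe sets the weights gave 9450, 2232, 7364 and 10501 calls in the same order. The weights were estimated by an iteration that stopped before it converged. With the mean of all probe sets they were 2 in SJL against KS and 2 by the F-test. Leaving out 1 array at a time gave 1 to 2 members in SJL against KS, 0 to 1 in KS against B6 and 0 to 2 in SJL against B6. With the replicate block the numbers called stayed at 1 for SJL against KS, 0 for KS against B6, 1 for SJL against B6 and 1 by the F-test, and Timp3 in SJL against KS had an adjusted p of 0.00218.

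A few differences that were never called changed sign. Mmp14 in SJL against KS was 0.0752 without SJL 2 (leave-out range -0.276 to 0.0752) and 0.0468 with the mean of all probe sets, and Mmp19 in SJL against B6 was 0.0456 without B6 2 (range -0.550 to 0.0456). Timp2 was called in SJL against KS with array weights (adjusted p = 0.00882) and with the mean of all probe sets (0.0197), and in SJL against B6 with that mean (0.0289). Mmp14 in SJL against B6 (0.0324) and Mmp2 in KS against B6 (0.0476) were called with array weights. The cause was not tested. With no filter, which adds dim probe sets to the adjustment, Mmp23, Reck, Ctss, Col3a1, Tgfb1 and Tgfb2 lost their calls in SJL against KS, 8 of 9 named genes in KS against B6 (all but Il1rn), and Adamtsl3, Reck, Thbs1 and Thbs2 in SJL against B6, with adjusted p of 0.0553 to 0.150. With the mean of all probe sets, Mmp14 minus Timp2 was -0.22 for KS against B6 and 0.26 for SJL against B6, and Mmp14 minus Timp3 was 0.41 in SJL against B6. Mmp19 was not tested at the filter of the 70th percentile.

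Over all probe sets, 3489 were called in SJL against KS, 1286 were called in KS against B6, and 3605 when SJL was set against B6. In the same order these were 9450, 2232 and 7364 with array weights, 2468, 838 and 2578 with no filter, and 1796, 641 and 1840 against a fold of 1.2. For KS against B6 they were 745 without KS 2 and 823 without KS 3. Levels near the lower end of the scale set no order between strains for Mmp3, Mmp9, Timp1 and Timp4.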

Other observations

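Timp2 lies next to Usp36, a deubiquitinase gene, in the RefSeq order of chromosome 11. This pair was chosen after its values were seen. Usp36 averaged 33.7 in SJL, against 145 in KS and 141 in B6, and in SJL it fell by 1.84 on the log2 scale against KS (limma adjusted p = 0.000131) and fell by 1.81 against B6 (adjusted p = 0.000135). Lgals3bp, 2 places to the other side of Timp2, averaged 586 in B6, against 22.2 in SJL and 23.0 in KS. It was called in SJL against B6 (adjusted p = 9.68e-06) and in KS against B6 (adjusted p = 1.63e-05). Near Mmp2 on chromosome 8, genes also chosen after their values were seen fell in SJL. The phospholipid enzyme gene Lpcat2, adjacent to Mmp2, averaged 218 in SJL, against 526 in KS and 392 in B6 (adjusted p = 0.00321 against KS and 0.0256 against B6), and the transcription factor gene Irx5, 2 places to the other side, 120 in SJL, 263 in KS and 317 in B6 (adjusted p = 0.00393 and 0.00109). Irx6, the adjacent gene on that side, lay near the lower end and was not tested, and Mmp2 was not called in any contrast. Capns2, 2 places away on the side of Lpcat2, also fell in SJL (adjusted p = 0.0111 against KS and 0.0147 against B6). Syn2, the gene around Timp4, averaged 43.9 in KS and 11.0 in B6 (log2 difference 1.27, adjusted p = 0.0305), while Timp4 stayed near the lower end. Mkrn2, 2 places from Timp4, fell in SJL (adjusted p = 0.0180 against KS and 0.0312 against B6).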
